A study of Mus musculus with 10 samples.

Results

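The endothelin system was followed through its 7 genes: the ligand genes *Edn1*, *Edn2* and *Edn3*, the receptor genes *Ednra* and *Ednrb*, and the genes of the endothelin-converting enzymes, *Ece1* and *Ece2*. They were chosen by name, with earlier results of these data known, and all 7 were found among the 54532 genes of the table. RNA-seq was done on 10 retinas of 2-month-old BALB/c mice, an albino strain whose eyes lack the pigment that screens the retina from light. By the sample labels, mice of both groups were adapted to the dark for 12 hr, after which 5 retinas were taken from mice kept at 200 lux for 1 day (normal light, NL) and 5 from mice kept at 15000 lux for 1 day (light damage, LD). The study gives the genotype of its BALB/c mice as Tyr c/Tyr c, the tyrosinase mutation of albino mice, with Rpe65+/+, and calls the light-damaged retinas Kit+/+. Both groups share this background, and RNA came from the neural retina as a whole, so each value is an average over its cell types.

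Endothelins are short secreted peptides that were discovered as constrictors of blood vessels. Each is cut from a longer precursor, first by furin-like proteases to an inactive intermediate called big endothelin and then by an endothelin-converting enzyme to the active peptide. The peptides bind a pair of G protein-coupled receptors, of which the type A receptor prefers endothelin 1 and endothelin 2, and the type B receptor binds all endothelins about equally well. In the retina, *Edn2* is known as a gene that stressed photoreceptors switch on, and the type B receptor is known on Müller glia and astrocytes.

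The active peptide is short and similar in the 3 ligands, and a stretch of its coding sequence shows how alike they are. The bases below encode the active peptide of each ligand on the GRCm38 genome, read from GENCODE M21 transcripts 5′ to 3′ on the plus strand, and the capitals mark the codons of the 4 cysteines whose bridges fold the peptide.
Edn1: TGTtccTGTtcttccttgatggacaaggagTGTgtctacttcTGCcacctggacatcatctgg
Edn2: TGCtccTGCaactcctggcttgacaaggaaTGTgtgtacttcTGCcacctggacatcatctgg
Edn3: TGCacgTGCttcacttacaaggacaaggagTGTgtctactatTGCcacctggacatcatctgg
These stretches lie in exon 2 of 5 exons of each gene, at chr13:42303649-42303711 in *Edn1*, at chr4:120161951-120162013 in *Edn2* and at chr2:174761749-174761811 in *Edn3*. The peptides of *Edn1* and *Edn2* share 18 of 21 residues, and the peptide of *Edn3* shares 15 of 21 residues with each of them. At the base level, *Edn1* and *Edn2* are identical at 53 of 63 positions, so reads of either stretch still carry differences that set the genes apart.

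*Edn2* was the most abundant member in every retina, and after LD it rose about 8-fold. *Ednrb*, the gene of the type B receptor, rose more than 4-fold. *Edn1* and *Ece1* passed an adjusted p of 0.05, higher in LD but short of 2-fold, *Ece2* and *Ednra* did not pass the test, and *Edn3* was close to the limit of detection.

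Values are FPKM, that is, counts of fragments divided by the length of the gene and by the size of the library, which allows levels of different genes to be compared per length. The files hold 18965090 to 26832535 reads per retina. To compare LD with NL, limma was run on log2(FPKM + 0.1) for the 24508 genes that reached 0.1 FPKM in 5 or more retinas, with Benjamini-Hochberg adjustment of p over all of these. A gene was called changed when it differed by more than 2-fold with an adjusted p under 0.01, and fold changes on this scale understate those of low genes. The study describes the 5 columns of each group as biological replicates, without saying which retinas share a mouse. The retinas NL-5 and NL-7, LD-1 and LD-7, and LD-4 and LD-6 are closer to each other than the other pairs of their group, with a chi-square per gene of 2.52 to 3.41 against 10.9 to 38.5. The p-values measure only the spread between these samples. Summed over 8 rod markers, the level was 8743 to 10697 FPKM under NL and 1253 to 2608 FPKM after LD. In its histology the study saw no obvious degeneration after 1 day of this light, and significant degeneration only after a longer exposure. Defining markers of rods and Müller glia were thus abundant in all retinas, in keeping with the label of the tissue, and no marker of the 9 cell type lists used was at 0 reads in all retinas.

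Of the 7 members, 6 had values high enough for the test, and *Edn3* did not. Of these 6, 2 were called changed, both higher after LD, where 6.51% of all genes tested were called in either direction and 4.13% were called higher. At an adjusted p under 0.05 with no minimum fold change, 4 of the 6 were higher, where 14.5% of all genes were. With the closest pairs averaged, *Edn1* and *Ece1* lost this (adjusted p = 0.0861 and 0.0665 in limma), which left 2 of the 6. For 2 of the 6 members, *Edn2* and *Ednrb*, all LD values were outside the range of the NL values, as was the case for 22.4% of all genes. The median log2 fold change of the 6 members was 0.47, against −0.01 for all genes tested. The members were chosen with earlier results of these data known, and the study names *Edn2* among the known light-induced genes that changed in its RNA-seq. These counts and this median are therefore no independent evidence.

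**Figure D1:**
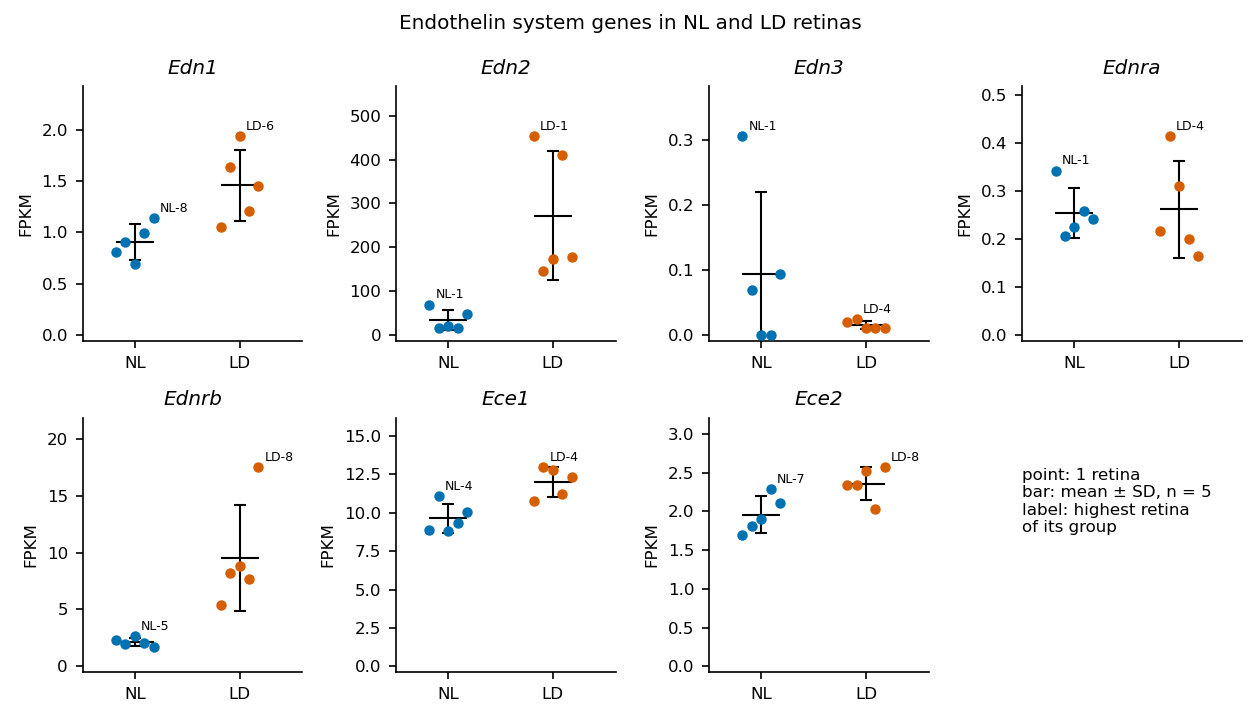
FPKM of the 7 endothelin genes in each retina (points, 5 NL and 5 LD), with the mean ± SD of each group; each panel has its own linear axis, and the name of the highest retina of each group is printed. All LD points lie above all NL points for *Edn2* and *Ednrb*, and the points overlap for the other 5 genes.

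*Edn2* encodes endothelin 2 and lies on chromosome 4 from 120161206 to 120167360 on the plus strand. Under NL its level was 69.2 FPKM in NL-1, 16.5 in NL-4, 20.5 in NL-5, 16.4 in NL-7 and 47.2 in NL-8. After LD it was 454 FPKM in LD-1, 146 in LD-4, 172 in LD-6, 410 in LD-7 and 177 in LD-8. The retinas LD-1 and LD-7 stood well above the other LD retinas, and NL-1 and NL-8 above the other NL retinas, yet the lowest LD retina was above the highest NL retina. Means were 34.0 ± 23.5 FPKM (NL) and 272 ± 148 FPKM (LD; SD, n = 5 each), an 8.01-fold ratio. In limma the log2 fold change was 3.09 (standard error 0.48, 95% interval 2.03 to 4.15, adjusted p = 8.05e-04), and a two-sided exact permutation test of the FPKM gave p = 0.00794, the smallest that 5 against 5 retinas allow. The permutation test, here and for the other members, counts the retinas of a closest pair as separate samples. It was not run on averaged pairs. After averaging each closest pair, which leaves 4 NL and 3 LD samples, *Edn2* missed the threshold for a call, with a log2 fold change of 2.86 and an adjusted p of 0.0140 in limma, and over all alternatives the adjusted p was 1.34e-04 to 0.0140.

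In rank, *Edn2* was between the 409th and the 3168th most abundant of 22046 protein-coding genes in the NL retinas. In the LD retinas it was between the 15th and the 127th. Its values rest on 510 to 2164 reads under NL and 4314 to 16200 reads after LD, so that counting error is small beside the differences between retinas. By the size of its log2 fold change, *Edn2* was the 114th of 15464 protein-coding genes tested.

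The spread of *Edn2* within a group was wide, with a coefficient of variation of 69.2% under NL and 54.3% after LD, against 9.84% and 8.14% for *Ece1*. LD-1 and LD-7, the retinas with the most *Edn2*, form a closest pair and also had the highest sums of 7 microglia and macrophage markers, with 32.8 and 29.8 FPKM. The remaining LD retinas had 16.5 to 22.4 FPKM. The NL retinas had 10.1 to 13.0 FPKM, with NL-1 the highest and NL-8 at 10.1 FPKM. Of these 7 markers, 4 were called higher after LD. NL-8 and NL-1 had the highest sums of 10 pigment epithelium markers among NL retinas, with 159 and 96.0 FPKM against 53.9 to 74.4 FPKM in the others. After LD that sum was 61.0 to 118 FPKM, lowest in LD-1 and LD-7, the LD retinas with the most *Edn2*. LD-8 had the highest sum of the LD retinas, and none of the 10 markers was called. Most of each pigment epithelium sum was *Ttr*, at 35.8 to 97.8 FPKM in NL and 44.0 to 82.7 FPKM in LD retinas. Among LD retinas, the sum of 8 rod markers was 2608 FPKM in LD-8, 2417 in LD-1 and 2009 in LD-7. It was 1253 and 1340 FPKM in LD-4 and LD-6, the LD retinas with the least *Edn2*. NL-1 and NL-8, the NL retinas with the most *Edn2*, had the lowest rod sums under NL, 9851 and 8743 FPKM. The part of rods, microglia, macrophages or pigment epithelium in the *Edn2* values was not tested. Without NL-1 and NL-8, an alternative added after the values were seen, the log2 fold change was 3.76 and the adjusted p from limma 3.66e-04. In bulk tissue, fewer cells of a type and less RNA per cell cannot be told apart, which holds for every gene and marker given here.

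The 250 bases before the start of *Edn2*, chr4:120160956-120161205 on the plus strand of GRCm38.p6, are shown because *Edn2* rose most among the members, and capitals mark a match to a hypoxia response core.
Edn2 upstream: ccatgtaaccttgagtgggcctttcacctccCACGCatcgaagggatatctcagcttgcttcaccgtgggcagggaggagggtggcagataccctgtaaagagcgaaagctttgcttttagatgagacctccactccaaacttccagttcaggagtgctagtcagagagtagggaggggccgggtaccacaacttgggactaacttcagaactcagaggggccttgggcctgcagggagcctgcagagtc
The match begins 219 bases before the start and reads GCGTG on the other strand. In RefSeq promoter windows of 250 bases before and 50 bases after a start, 4 motifs were searched on both strands, and matches of different motifs may overlap. The hypoxia core, ACGTG or GCGTG, was found in 7 of the 10 windows of the members and in 43.8% of all 32851 windows. The AP-1 motif TGANTCA, the CRE motif TGACGTCA and the STAT motif TTCNNNGAA were found in 0 of the 10 windows, against 7.81%, 1.79% and 8.30% of all windows. Several windows can belong to the same gene, and a match or its absence describes only these letters.

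The other ligands were far lower. *Edn1*, on chromosome 13 from 42301476 to 42307990, encodes endothelin 1, the main endothelin of blood vessel endothelium. Its level under NL was 0.809 FPKM in NL-1, 0.902 in NL-4, 0.691 in NL-5, 0.991 in NL-7 and 1.14 in NL-8. After LD it was 1.05 FPKM in LD-1, 1.64 in LD-4, 1.94 in LD-6, 1.21 in LD-7 and 1.45 in LD-8. In 4 LD retinas it exceeded the NL range, while LD-1 lay within the NL range. The log2 fold change was 0.62 (95% interval 0.21 to 1.03, adjusted p = 0.0295 in limma), under the 2-fold needed for a call, and the exact permutation p was 0.0159, on 30 to 93 reads per retina. The antisense gene *Gm47118* overlaps *Edn1* and had 0 to 3 reads per retina; whether the counting used strand is not given, so reads of a gene and its antisense partner cannot be told apart.

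The retinas with the most *Edn1*, LD-6 and LD-4, form a closest pair. They also had the highest sums of 9 endothelial markers, 92.9 and 92.2 FPKM. The remaining LD retinas had 55.2 to 59.0 FPKM, and the NL retinas 39.8 to 49.1 FPKM. Most of each sum was *Kdr*, at 27.1 to 37.1 FPKM in NL and 38.1 to 64.4 FPKM in LD retinas. None of the 9 markers was called changed. At an adjusted p under 0.05, 2, *Kdr* and *Egfl7*, were higher, and the other 7 did not pass. Among LD retinas, LD-4 and LD-6 also had the highest sums of Müller glia, astrocyte, pericyte and smooth muscle, horizontal cell and ganglion cell markers. They did not lead in the microglia and pigment epithelium sums, and their rod sums, 1253 and 1340 FPKM, were the lowest of all retinas. The part of endothelial cells in the *Edn1* values was not tested. Without LD-4 and LD-6, an alternative added after the values were seen, the log2 fold change of *Edn1* was 0.42 with an adjusted p of 0.165 in limma. The adjusted p of *Edn1* was under 0.05 in 15 of 26 alternatives and 0.0107 to 0.165 over all of them. It rose to between 0.0520 and 0.0696 when any of NL-1, NL-4, NL-5, LD-4, LD-6 or LD-8 was left out alone.

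*Edn3*, on chromosome 2 from 174760619 to 174784042, encodes endothelin 3, which with the type B receptor is needed by the neural crest cells that form melanocytes and gut neurons. It had 27 reads in NL-1, 6 in NL-4, 0 in NL-5, 0 in NL-7 and 10 in NL-8. After LD it had 2 reads in LD-1, 2 in LD-4, 1 in LD-6, 1 in LD-7 and 1 in LD-8. A count of 0 allows up to 0.0359 FPKM in NL-5 and 0.0344 FPKM in NL-7, and all LD retinas were at or under the 3 reads of that limit. The highest level, 0.307 FPKM, was in NL-1. No fold change is given, since only NL-1, NL-4 and NL-8 were above the limit, and the groups overlap (exact permutation p = 0.167).

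**Figure D2:**
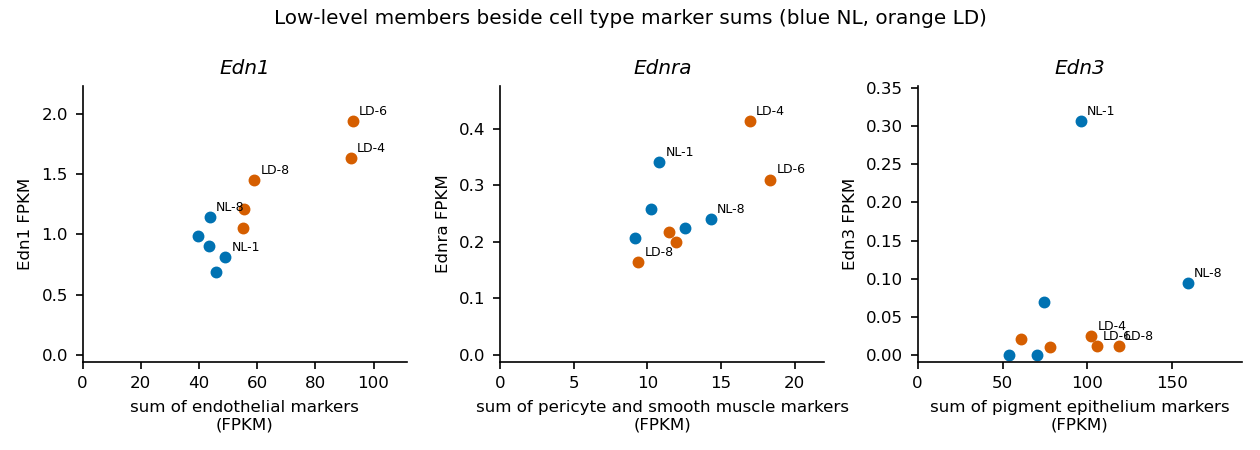
Level of *Edn1*, *Ednra* and *Edn3* (FPKM) against the summed level (FPKM) of endothelial, pericyte and smooth muscle, and pigment epithelium markers in each of the 10 retinas, with some retinas named. LD-4 and LD-6, a closest pair, have the highest endothelial sums and the most *Edn1*, and also lead the LD retinas in several lists not shown. The NL retinas with *Edn3* above 3 reads are NL-1, NL-4 and NL-8.

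Of the summed FPKM of the 3 ligands, *Edn2* held 94.3% to 98.4% under NL. After LD its share was 98.9% to 99.8%. In the ratio of *Edn2* to *Edn1*, the NL retinas lay between 16.6 and 85.6 and the LD retinas between 88.7 and 431. The highest NL ratio, in NL-1, was just under the lowest LD ratio, in LD-6.

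*Ednrb*, on chromosome 14 from 103814625 to 103844402 on the minus strand, encodes the type B receptor. Under NL it was at 2.35 FPKM in NL-1, 1.95 in NL-4, 2.66 in NL-5, 2.04 in NL-7 and 1.67 in NL-8. After LD it was at 5.40 FPKM in LD-1, 8.18 in LD-4, 8.79 in LD-6, 7.65 in LD-7 and 17.5 in LD-8. LD-8 stood far above the other LD retinas, LD-1 was the lowest of them, and no LD retina was within the NL range. Means were 2.13 ± 0.378 FPKM (NL) and 9.50 ± 4.64 FPKM (LD; SD, n = 5 each), a 4.45-fold ratio. In limma the log2 fold change was 2.01 (standard error 0.26, 95% interval 1.43 to 2.59, adjusted p = 2.58e-04), and the exact permutation p was 0.00794. With a replicate block on the numbers shared by both groups, which were not found to pair the retinas, *Ednrb* was not called, at a log2 fold change of 2.09 and an adjusted p of 0.0150 in limma. It rests on 177 to 230 reads under NL and 562 to 1660 after LD. *Ednrb* was the 332nd of 15464 protein-coding genes by log2 fold change. The order of the LD retinas was not that of *Edn2*: LD-1, the highest in *Edn2*, was the lowest in *Ednrb*.

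*Ednrb* is known in glia, and the glial markers did not move one way. Of 8 Müller glia markers, *Glul*, the gene of glutamine synthetase, was called lower, with a log2 fold change of −2.09 (adjusted p = 1.99e-07 in limma). Of the others, 2 were higher and 1 was lower at an adjusted p under 0.05, and the 8 summed to 1073 to 1310 FPKM in NL and to 524 to 741 FPKM in LD retinas. The lower sum was mainly that of *Glul*, with means of 711 FPKM (NL) and 165 FPKM (LD). The median log2 fold change of the 8 markers was 0.03. Of 4 astrocyte markers tested, *Aldh1l1* and *Slc14a1* were called higher. *S100b* (log2 difference −0.47, adjusted p = 0.0674 in limma) and *Pax2* (0.36, adjusted p = 0.354) did not pass. The summed level of the list of 5 was 9.88 to 14.8 FPKM in NL and 23.7 to 34.3 FPKM in LD retinas. It was highest in LD-4 and LD-6, a closest pair. Its rise came from *Aldh1l1* (mean 2.33 FPKM in NL and 11.9 in LD) and *Slc14a1* (2.98 and 11.6). *S100b* had means of 6.13 and 4.45 FPKM. LD-8, with the most *Ednrb*, had an astrocyte sum of 26.2 FPKM, within the range of the other LD retinas. The part of the number of these cells in the *Ednrb* values was not tested.

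*Ednra*, on chromosome 8 from 77663031 to 77724464 on the minus strand, encodes the type A receptor of vascular smooth muscle and pericytes. Under NL it was at 0.342 FPKM in NL-1, 0.206 in NL-4, 0.225 in NL-5, 0.258 in NL-7 and 0.241 in NL-8. After LD it was at 0.217 FPKM in LD-1, 0.414 in LD-4, 0.310 in LD-6, 0.200 in LD-7 and 0.164 in LD-8. The groups overlapped, with LD-4 the highest and LD-8 the lowest of all retinas. The 95% interval of its log2 difference, −0.49 to 0.48, leaves room for a change of either sign at 20 to 46 reads per retina (adjusted p = 0.995 in limma, exact permutation p = 0.905). LD-4 and LD-6, a closest pair, also had the highest sums of 8 pericyte and smooth muscle markers, 16.9 and 18.4 FPKM. As given for *Edn1*, they led the LD retinas in the sums of several other lists too. The range was 9.39 to 11.9 FPKM for the remaining LD retinas and 9.14 to 14.3 FPKM for the NL retinas. Without LD-4 and LD-6 the log2 difference of *Ednra* was −0.26 (adjusted p = 0.437 in limma). The overlapping gene *4933431K23Rik*, on the opposite strand, had 0 to 4 reads.

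The ratio of *Ednrb* to *Ednra* was 6.87 to 11.8 in the NL retinas, with a median of 7.92. In the LD retinas it was 19.8 to 107, with a median of 28.3. The groups did not overlap, and LD-8, with the most *Ednrb* and the least *Ednra*, was far above the rest.

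**Figure D3:**
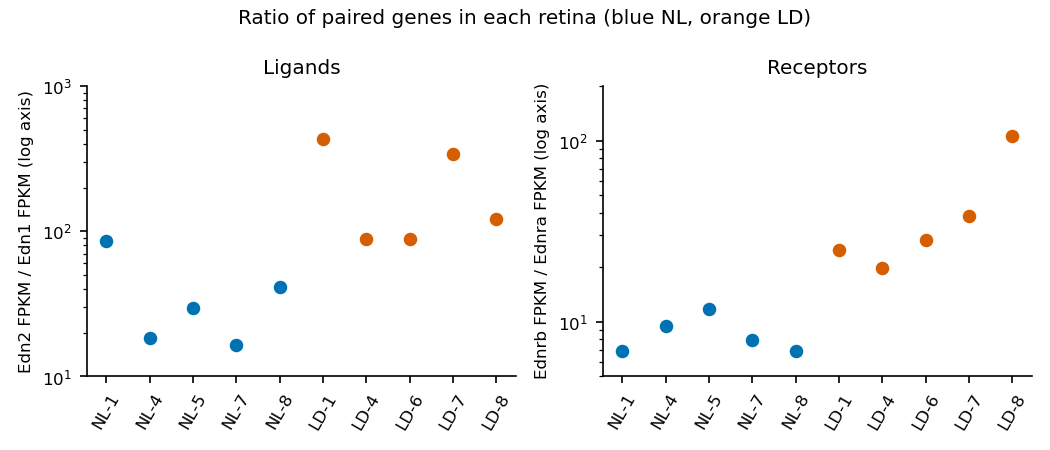
Ratio of *Edn2* to *Edn1* FPKM (left) and of *Ednrb* to *Ednra* FPKM (right) in each retina, on log axes, with NL in blue and LD in orange. All LD retinas lie above all NL retinas in both ratios, with NL-1 at 85.6 close to LD-6 at 88.7 on the left and LD-8 highest at 107 on the right.

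The converting enzymes are membrane metalloproteases that make the final cut to the active peptide. *Ece1*, on chromosome 4 from 137862237 to 137965229, was at 8.88 FPKM in NL-1, 11.1 in NL-4, 8.80 in NL-5, 9.34 in NL-7 and 10.1 in NL-8. After LD it was at 10.8 FPKM in LD-1, 13.0 in LD-4, 12.8 in LD-6, 11.2 in LD-7 and 12.3 in LD-8. Only LD-1 lay within the NL range. The log2 fold change of 0.32 (95% interval 0.15 to 0.49, adjusted p = 0.0111 in limma, exact permutation p = 0.0159) was well under 2-fold, and without LD-4 and LD-6 it was 0.25 with an adjusted p of 0.0752 in limma. The adjusted p in limma was also above 0.05 with the closest pairs averaged (0.0665), on the 4 shared numbers with no block (0.0689) and without NL-1 and NL-8 (0.0518), and was 9.81e-04 to 0.0752 over all alternatives. The antisense gene *Gm13012*, which overlaps *Ece1*, had 2 to 10 reads per retina.

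*Ece2*, on chromosome 16 from 20629828 to 20646485, encodes a related enzyme that works best at acid pH inside cells. It was at 1.69 FPKM in NL-1, 1.81 in NL-4, 1.90 in NL-5, 2.29 in NL-7 and 2.10 in NL-8. After LD it was at 2.34 FPKM in LD-1, 2.34 in LD-4, 2.52 in LD-6, 2.03 in LD-7 and 2.57 in LD-8. All LD retinas but LD-7 were above the NL range. The log2 difference of 0.26 had a 95% interval of 0.03 to 0.49, its adjusted p of 0.0940 in limma did not pass, and its exact permutation p was 0.0397. The annotation places the protein-coding gene *Gm49333* over *Ece2* on the same strand, and it had 0 reads. Since the counting program is not given, reads of a shared part may have gone to *Ece2* or been left out.

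**Figure D4:**
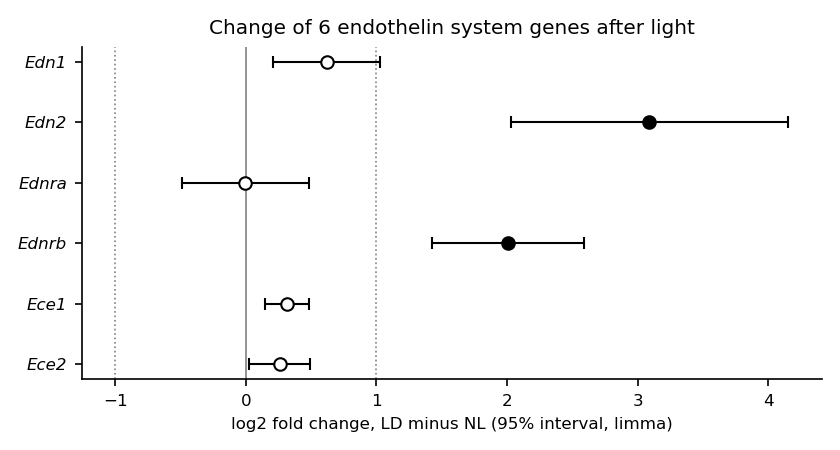
Log2 fold change (LD minus NL) of the 6 members tested, with the 95% interval from limma; filled points were called changed, and dotted lines mark a 2-fold difference. The intervals of *Edn2* and *Ednrb* lie wholly above 2-fold, that of *Edn1* ends near it, and that of *Ednra* spans 0.

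Ordered by level per length under NL, *Edn2* came first and *Ece1* second, with no overlap between their NL values. *Ednrb* and *Ece2* followed, and their NL values overlapped. *Edn1* was next and then *Ednra*, while *Edn3* overlapped *Ednra* only through NL-1. After LD, *Ednrb* had left the level of *Ece2* and overlapped *Ece1*, at 5.40 to 17.5 FPKM against 10.8 to 13.0 FPKM. The order of the rest was unchanged, with *Edn3* now wholly below *Ednra*.

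The genes that work on either side of the receptors were examined as lists. Of 9 genes of precursor processing and peptide clearance, among them the proprotein convertase genes *Furin*, *Pcsk5*, *Pcsk6* and *Pcsk7* and the neprilysin gene *Mme*, 8 were tested. None was called, where 6.51% of all genes tested were, and 0 calls among 8 genes are close to that share. None had an adjusted p under 0.05, where 14.5% of all genes were higher and 13.4% lower. Their median log2 fold change was −0.01. The smallest adjusted p in limma belonged to *Mmel1*, a neprilysin-like protease gene, at 0.0867 for a log2 difference of −0.33, with all LD values (1.82 to 1.86 FPKM) under the NL values (1.89 to 2.91 FPKM). *Phex*, a related protease gene, followed at 0.394.

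Among 25 genes of G proteins, phospholipases, calcium release channels, protein kinases C, arrestins and regulators that act behind endothelin receptors, none was called changed. Over all genes tested 6.51% were called, so 0 calls among 25 are not far from that share. Without the 2-fold minimum, 12 of the 25 were higher and none lower at an adjusted p under 0.05, where 14.5% of all genes were higher, and the list's median log2 fold change was 0.27. *Prkce*, the gene of a protein kinase C, went from 19.7 ± 1.16 to 25.0 ± 1.03 FPKM (SD, n = 5 each; log2 fold change 0.35, adjusted p = 4.07e-04 in limma). *Prkcd*, of the same family, went from 2.42 ± 0.0898 to 3.84 ± 0.510 FPKM (SD, n = 5 each; log2 fold change 0.64, adjusted p = 5.51e-04 in limma). These genes serve many receptors.

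The list of 10 genes of the retinal injury response was drawn up with earlier results of these data known, so its direction is no independent evidence. Of its members, 5 were called higher and none lower, where 4.13% of all genes tested were called higher. At an adjusted p under 0.05, 7 were higher, where 14.5% of all genes were. The median log2 fold change was 1.42. *Socs3*, an inhibitor of cytokine signalling that is itself induced by it, rose from 2.12 ± 0.304 to 51.0 ± 19.0 FPKM (SD, n = 5 each), by 4.46 on the log2 scale (adjusted p = 3.21e-07 in limma). *Lif*, a cytokine gene, had a log2 fold change of 4.50, *Gfap*, of a filament protein of reactive glia, 3.20, and *Fgf2*, a growth factor gene, 2.66. *Stat3*, the transcription factor behind LIF-type receptors, had 1.85 and was the last of the 5. The receptor genes on the list differed: *Il6st* (log2 fold change 0.99, adjusted p = 3.48e-07 in limma) and *Fgfr1* (0.89, adjusted p = 1.39e-04) were higher but short of 2-fold, while *Lifr* and *Cntfr* did not pass, with log2 differences of −0.13 and −0.04.

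Genes of other vasoactive peptides and their receptors were called about as often as genes at large. Of 31 genes, 25 were tested, and 1 was called higher and 1 lower, where 6.51% of all genes were called. At an adjusted p under 0.05, 4 were higher and 4 lower, where 14.5% of all genes were higher and 13.4% lower, and 17 passed in neither direction. Their median log2 fold change was −0.02. *Calca*, the gene of calcitonin and of the vasodilator CGRP, rose from 0.296 ± 0.103 to 1.38 ± 0.225 FPKM (SD, n = 5 each; log2 fold change 1.92, adjusted p = 7.24e-05 in limma). *Apln*, the gene of apelin, which acts on endothelial cells, fell from 0.654 ± 0.151 to 0.115 ± 0.0590 FPKM (SD, n = 5 each; log2 fold change −1.83, adjusted p = 2.33e-04 in limma). Both genes are low, and the call of each depends on how low values are treated: with a pseudocount of 1 neither was called.

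**Figure D5:**
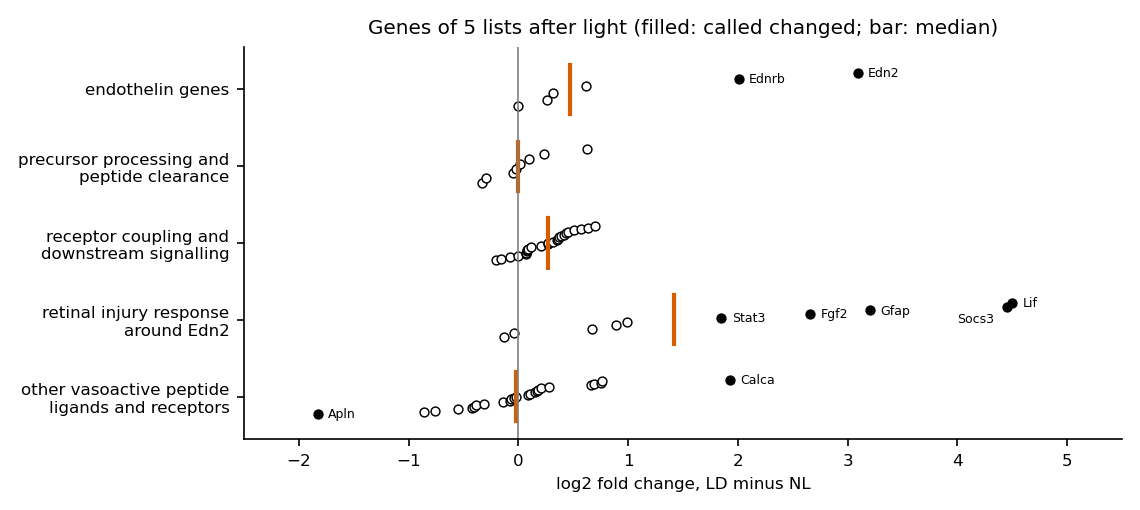
Log2 fold change (LD minus NL) of the genes tested in 5 lists; each point is a gene, filled and named where it was called changed, and the orange bar is the median of the list. Calls are in the endothelin genes (2), the injury response (5) and the vasoactive peptides (2), and in neither of the other 2 lists. Over all genes tested, 6.51% were called.

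Among 12688 protein-coding genes that averaged 1 FPKM or more under NL or after LD, those whose log2 profile over the 10 retinas was closest to that of *Edn2* were *Ccdc194*, *Fgr*, *Tnnt2*, *Lad1* and *Gbp9*. The measure was the root mean square difference of the centred log2 profiles, which was 0.285 for *Ccdc194* and 0.405 to 0.457 for the other 4. *Ccdc194* was at 0.746 ± 0.631 FPKM (NL) and 5.05 ± 3.01 FPKM (LD; SD, n = 5 each). Of the 5, only *Lad1* averaged 1 FPKM or more under NL, and the others passed through their LD values. *Fgr* was at 0.0244 to 0.221 FPKM under NL, where the added 0.1 narrows its fold change. *Fgr* encodes a tyrosine kinase of myeloid cells, *Tnnt2* a troponin, *Lad1* an anchoring filament protein and *Gbp9* a guanylate-binding protein.

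The genes closest to *Ednrb* were *Trim47*, *Tapbp*, *C1s1*, *Tap2* and *H2-D1*, with differences of 0.299 to 0.354. Of these, *Tapbp*, *Tap2* and *H2-D1* belong to antigen presentation on major histocompatibility class I, and *C1s1* encodes a complement protease. *Trim47* and *C1s1* averaged under 1 FPKM under NL. *H2-D1* was the most abundant, at 48.2 ± 12.0 FPKM (NL) and 186 ± 37.6 FPKM (LD; SD, n = 5 each), and has close paralogs that can share its reads. None of the 5 is also on the list of *Edn2*. These are the smallest of many differences and are given as a description.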

How the data were processed

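The 10 retinas were grouped by their titles. The authors deposited FPKM values for all genes of the series, with positions that match GRCm38 for all 7 members. The submitters' processing notes name TopHat2 2.0.9, Bowtie2 2.0.6 and mm8; the counting program and the use of strand are not given in the sources used here. FPKM times gene length was a whole number of reads for 100% of values (tolerance 0.01), so reads were recovered. The library size in the FPKM carried a factor of 0.951 to 0.968 in NL and 1.04 to 1.07 in LD retinas.

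From the deposited FPKM, log2(FPKM + 0.1) was fitted in limma 3.58.1 (R 4.3.3) without a block and with the prior variance following the mean level (trend). Exact permutation tests used scipy 1.17.1, and plots matplotlib 3.10.9. On simulated data for LD against NL with 24925 genes, 88% of 100 genes changed by 1.5 on the log2 scale and 100% of 100 changed by 3 were called with the right sign, with 5 false calls. The simulated retinas were independent, without close pairs, and all genes had the same dispersion. The changed genes had a spread below that of *Edn2* and more reads on average than *Ednra*. These rates therefore do not carry over to the members. A limit of 3 reads was used for genes at or near 0, for counting error only.

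The members, the lists and the rule for named genes were chosen with earlier results of these data known. The rule named all members, genes overlapping them, up to 4 called genes per direction and list (otherwise the 2 with the smallest adjusted p), and the 5 closest profiles; other listed genes were named after their values were seen. Peptide coding bases were read from GENCODE M21 transcripts in place of protein sequences, and promoters from RefSeq. The alternatives varied pseudocount, filter, scaling, test, threshold, a replicate block, *Xist* as a covariate (above 1 FPKM in 2 NL and 2 LD retinas) and the retinas included; leaving out LD-4 and LD-6, or NL-1 and NL-8, was added after the values were seen.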

Additional observations from a re-analysis of the deposited data

Results flagged for a closer look

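*Ednrb* in LD-8, at 17.5 FPKM, was farther from the other LD retinas than Dixon's limit for 5 samples allows: its gap to the next retina, at 8.79 FPKM, was 0.719 of the range of the group, above the critical 0.71. The ratio of *Ednrb* to *Ednra* in the same retina, 107, was also far from the next, at 38.1, with a gap of 0.788 of the range. The same *Ednrb* value enters both. In all, 18 groups of 5 values (7 genes and 2 derived measures, under NL and LD) were examined this way and 2 were beyond the limit, where chance gives about 1 in 20 groups. Without LD-8, *Ednrb* was still called higher, with a log2 fold change of 1.76, and the mean ratio of the LD retinas was 27.8 in place of 43.5.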

How the results depend on the processing

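*Edn2* and *Ednrb* were higher after LD under all 26 alternatives, with log2 fold changes of 2.86 to 3.76 and 1.66 to 2.21, and each kept its call in 25 of them; the exceptions were *Edn2* with the closest pairs averaged (2.86, adjusted p = 0.0140 in limma) and *Ednrb* with a replicate block (2.09, adjusted p = 0.0150). The number of endothelin genes called, 2 in the report, was therefore 1 with the closest pairs averaged and 1 with the replicate block, and 4 at an adjusted p under 0.05 with no fold minimum. Over all genes, 1595 were called; there were 6818 at that looser threshold, 816 with a pseudocount of 1, and 808 with the replicate block on the numbers 1, 4, 7 and 8 that both groups share, against 1182 without the block on the same retinas. Deviations of retinas with the same number correlated by −0.089 to 0.066, so the numbers were not found to pair the retinas. Only for number 4 did the NL retina correlate most with the LD retina of its own number. What the numbers stand for is not stated, and fewer samples entered that fit. *Ednra* changed sign, with log2 differences of 0.0053 (pseudocount 1), 0.081 (TPM scaling), 0.093 (no library factor), 0.097 (limma-voom on recovered reads) and 0.092 (without NL-1 and NL-8), and −0.14 to 0.10 when single retinas were left out; the cause was not tested. Of the receptor coupling list, 12 genes passed at the looser threshold; of the vasoactive list 8 did, 0 were called with a pseudocount of 1, 1 with a filter of 1 FPKM in a group and 1 with the block. Without the library factor the median log2 fold change of all genes was 0.11, with limma-voom 0.12, against −0.01; relative to that shift *Edn1* and *Ece1* kept their direction. With these scalings and TPM, *Ece2* had adjusted p-values of 0.0105 to 0.0211 in limma. Depth limits *Edn3* and *Ednra*, with at most 46 reads per retina.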
